A study of Mus musculus with 6 samples.

Results

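Radial glia are the neural stem cells of the embryonic brain, and astrocytes are support cells of the mature brain that arise in large part from them. The 10 genes described here are used as markers of these cells. They were listed by name, with earlier results of these data known, and all 10 had a row among the 17144 genes on the arrays. The deposited table gives Ensembl identifiers without names. The names of 6 of the 10 were checked against named rows with the same values, while those of Slc1a2, Gfap, Aqp4 and Aldh1l1 rest on the identifier given for each and were not checked. RNA came from wild type mouse embryonic stem cells (ESCs) of the V6.5 line, which was derived from a blastocyst of a 129SvJae/C57B6 F1 background, and from neural precursor cells (NPCs) made from that line in culture. ESCs were grown in serum with LIF, and NPCs on polyornithine and laminin in N3 medium with bFGF and EGF, which keep them dividing. Both cell types thus come from 1 line, and each had 3 biological replicates with 1 Affymetrix mouse array apiece. The labels do not say whether the replicates were separate derivations, so the p-values measure the spread between these arrays.

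Some of these genes are used as markers of dividing radial glia and others mainly as markers of astrocytes. Fabp7 (brain lipid-binding protein) and the intermediate filament genes Nes and Vim mark radial glia and neural progenitors. Slc1a3 (the glutamate transporter GLAST) is found in both radial glia and astrocytes. Slc1a2 (the glutamate transporter GLT-1), Aqp4 (a water channel of astrocyte endfeet), Gfap (the intermediate filament of astrocytes) and Aldh1l1 (an enzyme of folate metabolism) are classical markers of astrocytes. Aldoc, a glycolytic aldolase, and Sparcl1, a secreted matrix protein also called hevin, are abundant in astrocytes.

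Fabp7, Sparcl1, Slc1a3, Vim, Aldoc and Nes, which are 6 of the 10 genes, rose from ESCs to NPCs, by between 2.05 for Nes and 9.27 for Fabp7 on the log2 scale. The ESC values of Fabp7 and Sparcl1 lay in the low range of the arrays, where no detection call was used, so their changes are given as measured differences and not as folds. Gfap and Aqp4 stayed at the low end of the arrays in both cell types. Slc1a2 was slightly higher in NPCs and Aldh1l1 slightly lower, each by less than 1.5-fold. Each gene was tested with limma over all 17144 genes, and a gene was called when its means differed by more than 1.5-fold with a Benjamini-Hochberg adjusted p under 0.05. By this rule 6 members were called higher in NPCs, where 15.4% of all genes were, and 0 were called lower, where 18.7% of all genes were. An adjusted p under 0.05 at any fold was reached by 8 members and by 49.0% of all genes. The median difference, NPC minus ESC, was 2.28 on the log2 scale over the 10 members and -0.036 over all genes. In a culture measured in bulk, more cells of a type and more RNA per cell cannot be told apart.

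The promoters of 3 genes are shown because they belong to different outcomes on the arrays, Fabp7 as the radial glia gene that rose, Vim as a filament gene that rose and Gfap as a filament gene that did not. Each sequence runs 5′ to 3′ along the gene's strand from 250 bases before its RefSeq start to 10 bases after it, in build GRCm38.p6. Fabp7 lies at chr10:57784673-57784932 on the plus strand, Vim at chr2:13574061-13574320 on the plus strand and Gfap at chr11:102897191-102897450 on the minus strand. Capitals mark matches to any of the 5 short motifs named after the sequences.
Fabp7: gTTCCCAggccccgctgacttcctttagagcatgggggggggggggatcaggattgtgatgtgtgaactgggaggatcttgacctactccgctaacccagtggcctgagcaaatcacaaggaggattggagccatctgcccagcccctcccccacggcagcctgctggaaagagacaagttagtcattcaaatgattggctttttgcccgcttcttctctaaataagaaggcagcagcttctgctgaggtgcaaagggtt
Vim: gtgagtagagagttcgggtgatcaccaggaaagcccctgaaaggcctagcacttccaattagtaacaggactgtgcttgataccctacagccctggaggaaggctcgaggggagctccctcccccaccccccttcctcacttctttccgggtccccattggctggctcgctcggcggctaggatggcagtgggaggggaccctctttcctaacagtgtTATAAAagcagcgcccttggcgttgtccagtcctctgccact
Gfap: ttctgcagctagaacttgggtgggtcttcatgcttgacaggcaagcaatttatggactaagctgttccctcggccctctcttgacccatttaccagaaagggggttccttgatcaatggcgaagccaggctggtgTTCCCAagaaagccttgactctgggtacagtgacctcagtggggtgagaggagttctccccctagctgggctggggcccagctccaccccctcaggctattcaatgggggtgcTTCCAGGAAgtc

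The motifs were searched on both strands of the full windows, which run to 50 bases after the start. They were CTTTGTT (SOX factors), ATGCAAAT (the octamer of POU factors), TGGGAA (RBPJ, the DNA-binding partner of Notch), TTCNNNGAA (STAT factors, added after the sequences had been seen) and TATAAA (the TATA box). The search covered 9 such RefSeq windows for 8 of the members, with 2 for Aldoc. Sparcl1 had no window in the set used. Aqp4 was left out of the members' search, so the counts below cover neither gene. The SOX letters and the octamer were in 0 of the 9 windows, against 5.85% and 1.74% of the 32851 windows of all genes. The RBPJ letters were in 5 of the 9, and in 25.6% of all windows. They begin at -249 in Fabp7 and at -115 in Gfap, in both on the opposite strand and so read TTCCCA in the sequences above. The STAT letters were in 3 of the 9 windows, and in 8.3% of all. In Gfap this match begins at -2 and runs over the start. The TATA box letters were in 2 of the 9 windows and in 13.6% of all, and in Vim they begin at -32. The matches are short and none overlaps another in the 3 sequences shown, and a match or its absence is a description of these letters only.

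Fabp7 (ENSMUSG00000019874_at), which encodes a fatty acid carrier of radial glia, had log2 values of 3.72, 3.85 and 3.79 in ESC replicates 1 to 3 and 12.87, 12.76 and 13.53 in NPC replicates 1 to 3. All NPC arrays were far above all ESC arrays, and NPC replicate 3 was the highest. The means were 3.78 ± 0.06 (SD, n = 3 arrays) in ESCs and 13.05 ± 0.42 (SD, n = 3 arrays) in NPCs, which is 9.27 apart on the log2 scale (SE 0.20, adjusted p = 1.22e-07, limma). Within an array, its value went from a percentile of 20.7 ± 1.82 among all genes in ESCs to 99.9 ± 0.05 in NPCs (SD, n = 3 arrays).

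Of the 3 intermediate filament genes, Nes and Vim rose in NPCs and Gfap was not called. Nes (ENSMUSG00000004891_at), which encodes nestin, a filament protein of neural stem cells, had log2 values of 5.54, 5.47 and 5.88 in ESC replicates 1 to 3 and 7.84, 7.57 and 7.64 in NPC replicates 1 to 3. No NPC array came near an ESC array. The difference was 2.05 on the log2 scale (SE 0.13, adjusted p = 1.70e-05, limma), or 4.15-fold. Vim (ENSMUSG00000026728_at), which encodes vimentin, a filament protein of many dividing and mesenchymal cells, read 9.29, 9.31 and 9.00 in ESCs and 12.57, 12.53 and 12.37 in NPCs. The gene was thus already at a percentile of 90.3 ± 1.11 (SD, n = 3 arrays) in ESCs, and all NPC arrays lay above that level. Its log2 value rose by 3.29 (SE 0.11, adjusted p = 8.21e-07, limma), or 9.77-fold.

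Gfap (ENSMUSG00000020932_at), which encodes a filament protein used as a marker of astrocytes, read 3.17, 3.23 and 3.26 in ESC replicates 1 to 3 and 3.30, 3.31 and 3.18 in NPC replicates 1 to 3. The arrays of the 2 cell types overlapped, and NPC replicate 3 lay below 2 of the ESC arrays. The log2 difference of 0.04 had a 95% interval of -0.14 to 0.23 and an adjusted p of 0.696 (limma). With each array centred on its median it was 0.20 (adjusted p = 0.0713, limma), and its adjusted p lay between 0.0713 and 0.908 over the alternatives. Gfap stood at a percentile of 9.47 ± 0.83 in ESCs and 10.6 ± 1.48 in NPCs (SD, n = 3 arrays). No detection call entered the comparison, and so low a value does not tell a weakly expressed gene from an absent one, and no fold is given.

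Both glutamate transporters had higher values in NPCs, and of them Slc1a3 was called. Slc1a3 (ENSMUSG00000005360_at) had log2 values of 5.40, 5.58 and 5.25 in ESC replicates 1 to 3 and 8.66, 8.72 and 9.80 in NPC replicates 1 to 3. No NPC array overlapped the ESC arrays, and NPC replicate 3 stood above the other 2. It rose by 3.66 (SE 0.30, adjusted p = 4.99e-05, limma), or 12.6-fold, and by 3.29 without NPC replicate 3. Slc1a2 (ENSMUSG00000005089_at), which becomes the main glutamate transporter of the mature forebrain, read 4.28, 4.27 and 4.42 in ESCs and 4.88, 4.66 and 4.75 in NPCs. The groups did not overlap, but they lay close together. The log2 difference was 0.43 (SE 0.09, 95% interval 0.21 to 0.65, adjusted p = 0.00635, limma), or 1.35-fold, so that Slc1a2 was not called. With each array centred on its median the difference was 0.59 and the gene was called.

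Aqp4 (ENSMUSG00000024411_at) read 3.06, 3.03 and 3.13 in ESC replicates 1 to 3 and 3.23, 3.06 and 3.16 in NPC replicates 1 to 3. These values overlapped, at percentiles of 6.66 ± 0.24 in ESCs and 8.36 ± 1.63 in NPCs (SD, n = 3 arrays). The log2 difference was 0.08 (95% interval -0.12 to 0.27, adjusted p = 0.483, limma). With each array centred on its median it was 0.23 (adjusted p = 0.0449, limma), still under 1.5-fold. As for Gfap, values so low may not track the RNA level, and the interval does not bound a change in it.

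Aldoc (ENSMUSG00000017390_at) had log2 values of 8.08, 8.10 and 8.12 in ESC replicates 1 to 3 and 10.44, 10.44 and 10.94 in NPC replicates 1 to 3. The ESC arrays were nearly equal, with an SD of 0.02, and all NPC arrays were higher. Aldoc rose by 2.51 (SE 0.15, adjusted p = 9.49e-06, limma), or 5.68-fold. Sparcl1 (ENSMUSG00000029309_at) read 3.69, 3.37 and 3.37 in ESCs and 11.21, 11.34 and 11.29 in NPCs. The NPC arrays were tightly grouped, with an SD of 0.06, and the gap to the ESC arrays was wide. The log2 value rose by 7.80 (SE 0.11, adjusted p = 2.89e-08, limma), from a percentile of 14.6 ± 4.27 in ESCs (SD, n = 3 arrays).

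Aldh1l1 (ENSMUSG00000030088_at) was the one member with lower values in NPCs. It read 5.34, 5.19 and 5.37 in ESC replicates 1 to 3 and 4.74, 4.66 and 4.83 in NPC replicates 1 to 3. The groups did not overlap, with every NPC array below every ESC array. The log2 difference was -0.56 (SE 0.09, 95% interval -0.77 to -0.34, adjusted p = 0.00163, limma), a fold size of 1.47, and Aldh1l1 was not called. It was called lower without ESC replicate 2, at -0.61, and without NPC replicate 3, at -0.60.

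**Figure D1:**
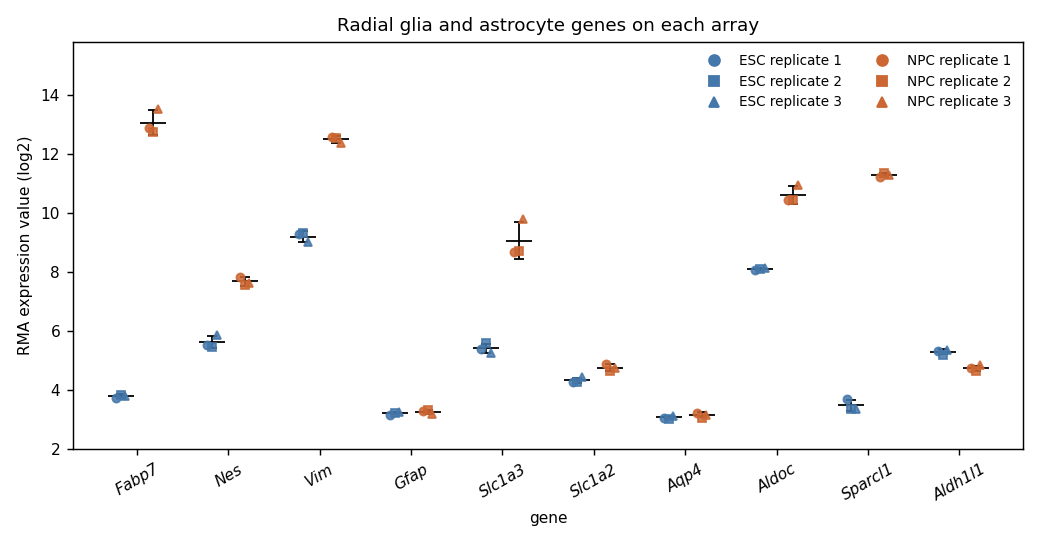
Log2 RMA expression value (vertical axis) of the 10 genes on each array, with ESC arrays in blue and NPC arrays in orange, a marker shape for each replicate, and the mean ± SD over 3 arrays as black bars. Fabp7 and Sparcl1 went from means of 3.78 and 3.48 in ESCs to 13.05 and 11.28 in NPCs, while the Gfap and Aqp4 arrays lay between 3.03 and 3.31 in both cell types.

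Over the members, 7 had all NPC arrays above all ESC arrays, which held for 26.1% of all genes. For 1 member, Aldh1l1, all NPC arrays were below, as for 32.6% of all genes, and 2 members overlapped. With 3 arrays on each side the smallest p of an exact permutation test is 0.1, so that no such test was used. Each gene is read by its own probes, so the percentiles tell where a value lay on the array and not how much RNA of one gene there was against another.

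**Figure D2:**
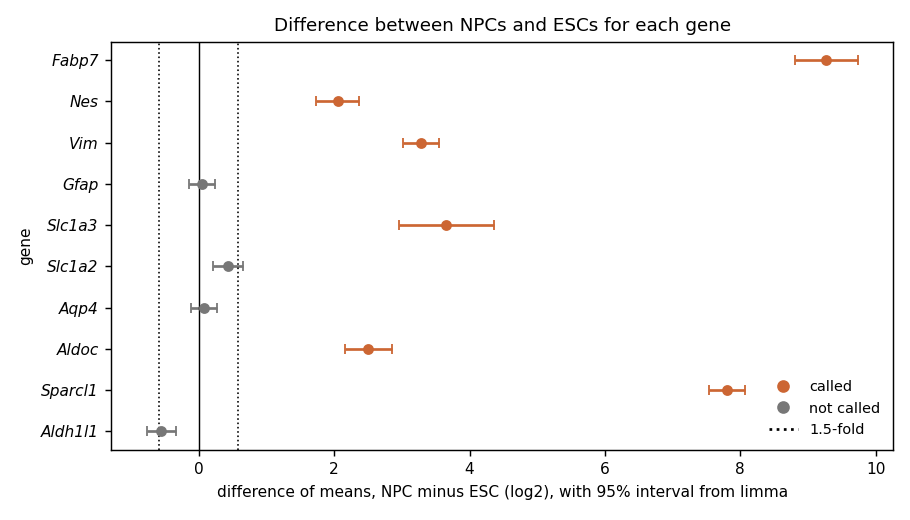
Difference of means, NPC minus ESC, on the log2 scale (horizontal axis) for each of the 10 genes, with the 95% interval from limma over 6 arrays, called genes in orange and others in grey, and dotted lines at 1.5-fold. The called genes lie between 2.05 and 9.27, and Gfap and Aqp4 have intervals that cross 0 within the dotted lines.

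NPC replicate 3 stood apart from its group, with r across genes of 0.978 and 0.979 to the other 2, where NPC replicates 1 and 2 had r = 0.997 (genes are not independent replicates). The titles of NPC replicates 1, 2 and 3 are NP106, NP107 and NP39, and the labels do not say what these numbers stand for. Among the members it was more than 1 above the mean of replicates 1 and 2 on the log2 scale at 1 gene, Slc1a3, by 1.10, or 2.15-fold. Over all genes 2.20% were this far above. Fabp7 followed at 0.72 above and Aldoc at 0.50 above. For the other 7 members replicate 3 lay between -0.18 (Vim) and 0.13 (Aldh1l1) of that mean. Replicates 1 and 2 differed from each other by at most 0.28 at any member (Nes). With replicate 3 left out, the differences of the 6 called genes lay between 2.08 for Nes and 9.03 for Fabp7, and each was still called.

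Genes of neighbouring function were read from lists that could be named only in part, since the tables that gave the names hold mostly genes that rose in NPCs, so that a count of rises among them carries no weight. Of 13 other radial glia genes 4 could be named, and of 28 other astrocyte genes 10, and 4 of the 4 and 10 of the 10 were called higher in NPCs. The radial glia genes were Ptprz1 (a receptor phosphatase), Tnc (the matrix protein tenascin C), Sox9 (a transcription factor of glial fate) and Notch1 (the receptor that keeps progenitors undifferentiated). Their log2 differences were 6.96 for Ptprz1, 4.81 for Tnc, 3.57 for Sox9 and 1.62 for Notch1, with adjusted p from limma of 3.73e-07, 2.61e-05, 0.000106 and 0.000178. The astrocyte genes ran from 1.04 for Agt (angiotensinogen) to 5.47 for Mlc1 (a membrane protein of astrocyte endfeet), with adjusted p = 0.000758 and 6.65e-07 (limma). Between them were Acsbg1 (a fatty acid ligase) at 4.47, Nfia at 4.08 and Nfib at 3.81 (both factors of gliogenesis), Id3 (an inhibitor of bHLH factors) at 3.94, Cd44 (a hyaluronan receptor) at 3.36, S100b (a calcium-binding protein) at 2.51, Ttyh1 (a membrane protein of the tweety family) at 1.48 and Slc4a4 (a bicarbonate transporter) at 1.33.

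Several of these genes also set NPC replicate 3 apart. It was the highest NPC array at 4 of the 4 radial glia genes and 9 of the 10 astrocyte genes, and was more than 1 above the mean of replicates 1 and 2 at 2 and 3 of them. Over all genes it was the highest NPC array at 37.9%, and among the 10 members it was the highest at 4 and the lowest at 2. The named genes come mostly from genes that rose in NPCs. The share over all genes is therefore no like background for them, and their counts carry no weight. The genes more than 1 above were Ttyh1 (1.47 above), Tnc (1.33), Acsbg1 (1.29), Slc4a4 (1.27) and Sox9 (1.27), next to Slc1a3 among the members. Cd44 went the other way, by -1.45. The 2 neuron genes that could be named, of 12, were lower in replicate 3 as well, Syt1 (a synaptic vesicle protein) by -2.08 and Dcx (doublecortin, of young neurons) by -1.20. Of the 12 fibroblast genes only Twist1 could be named, and of the 9 oligodendrocyte lineage genes Olig1, Olig2 and Cnp. All 6 of these neuron, fibroblast and oligodendrocyte lineage genes were called higher in NPCs, where 15.4% of all genes were. Names were available mostly for genes that rose, so this count carries no weight either. The log2 differences were 3.92 for Olig1, 3.81 for Olig2, 2.59 for Syt1, 2.44 for Twist1, 1.08 for Dcx and 0.88 for Cnp. In NPC replicate 3 alone, Dcx was only 0.28 above its ESC mean and Syt1 1.20 above its own. Relative to replicates 1 and 2, the departure of replicate 3 was 0.65 at Twist1, -0.22 at Olig1, 0.65 at Olig2 and -0.15 at Cnp. Pou5f1 (OCT4), the 1 pluripotency gene of 11 with a name, had a log2 mean of 12.44 ± 0.02 in ESCs and 3.70 ± 0.11 in NPCs (SD, n = 3 arrays). The part of other cell types in the members' values was not tested.

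**Figure D3:**
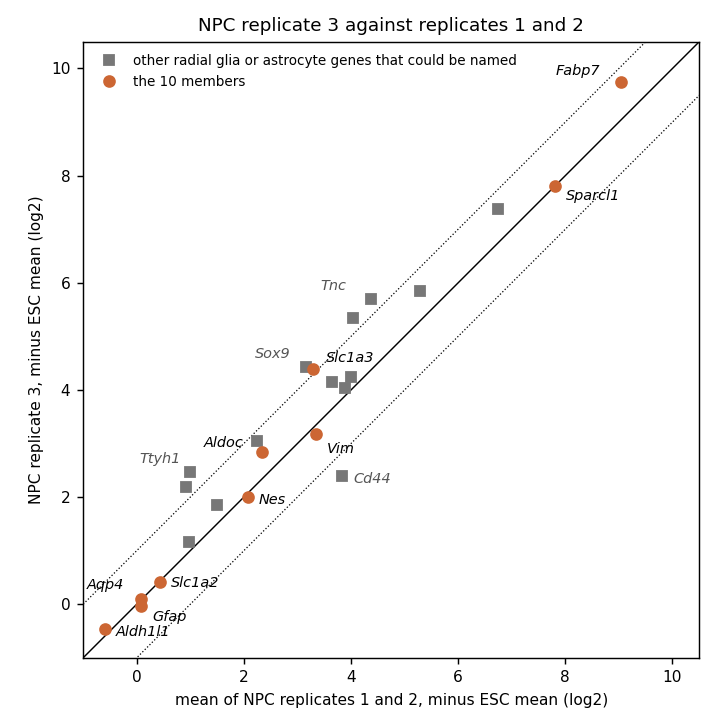
NPC replicate 3 minus the ESC mean (vertical axis, log2) against the mean of NPC replicates 1 and 2 minus the ESC mean (horizontal axis, log2) for the 10 members in orange and the 14 other radial glia or astrocyte genes that could be named in grey, with a solid line of equality and dotted lines 1 unit above and below it. Slc1a3 is the member above the upper line, together with Sox9, Tnc, Ttyh1 and 2 unlabelled genes, and Cd44 is below the lower line.

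The likeness of other genes to each member was measured as the distance between their profiles over the 6 arrays, each profile centred on its own mean, among the 1998 genes that could be named and are not members. Nearest to Fabp7 were the neural membrane proteins Gpm6b (distance 2.13) and Gpm6a (2.55) and then Ptprz1 (2.85), and the same 3 genes were nearest to Sparcl1, at 0.66, 1.11 and 1.18. Fabp7 and Sparcl1 ranked 1 and 2 among all genes by the size of their rise. The distance depends on that size, so these shared neighbours say little beyond large rises, and none lies close to Fabp7. Slc1a3 was nearest to Chn2 (0.22), Fez1 (0.27) and Bai2 (0.34). Vim was nearest to Tcf4 (0.21), Ccnd1 (0.24) and Tle6 (0.24), and Nes to Ncam1 (0.27), with Samd14 (0.29) also near. Aldoc was nearest to Ppargc1a (0.12), Elovl4 (0.13) and Fgf1 (0.18). For Slc1a2, Gfap, Aqp4 and Aldh1l1 the nearest genes with a name were Rfx3, Rfx3, Rfx3 and Pou4f2, but between 1808 and 11154 other genes were nearer, so these are no close match.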

How the data were processed

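The values deposited by the authors are log2 expression from RMA (robust multi-array average), with probes regrouped by Ensembl gene. The version and build of that grouping are not stated by the labels or methods. RMA quantile normalizes the arrays, so a shift of all RNA between the cell types would not show. The medians of the deposited gene values still differed, at 5.75 to 5.76 on the ESC arrays and 5.59 to 5.61 on the NPC arrays. Of 17208 rows, 64 control probe sets were left out. Precision is set by the number of arrays, 3 for each cell type. All 17144 genes entered 1 fit without covariates by lmFit and eBayes (limma 3.58.1, R 4.3.3) with Benjamini-Hochberg adjustment, which was checked on simulated arrays. The moderated Welch test of the paper's methods, other scalings, filters and fold thresholds, the replicate block and each array left out were alternatives.

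Members were found by their Ensembl identifier. For 6 of the 10 the name was checked against a row of the paper's tables that held the same 6 values within 0.0001, a match that named 2004 genes in all, mostly ones that rose. The genes named in the text are the members, the listed radial glia and astrocyte genes with a name, markers of other cell types, and the 3 named genes nearest each member, of which 1 is not reported here. Members and lists were chosen with earlier results of these data known. Promoters are RefSeq's for GRCm38.p6. Python 3.11.15, pandas 2.3.3 and matplotlib 3.10.9 were used.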

Additional observations from a re-analysis of the deposited data

How the results depend on the processing

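Under the alternatives run, which were other tests and variance estimates, quantile normalization, median centring, 2 filters, 2 fold thresholds, the replicate block and each array left out, none of the 164 values of the members changed sign and none lost a call. A call was gained by 5 values, which were Slc1a2 at 0.59 with median centring and at 0.43 with no fold threshold, and Aldh1l1 at -0.56 with no fold threshold, -0.61 without ESC replicate 2 and -0.60 without NPC replicate 3. Members called higher numbered 6, or 7 with median centring or no fold threshold. Members called lower numbered 0, or 1 with no fold threshold, and between 0 and 1 with an array left out. The same replicate numbers label ESCs and NPCs. Departures of the arrays from their group's mean correlated at 0.0264, 0.0110 and -0.00645 for the pairs numbered 1, 2 and 3, and the shared numbers were not taken to pair the arrays. Fitting the replicate block all the same, 6 members were called higher, 0 lower, and 5867 genes in all. Genes called over the whole table numbered 5851, and 3592 over 2-fold. Median centring raised the median of all differences by 0.15 and turned the split of called genes from 2638 higher and 3213 lower to 3302 and 2642, and quantile normalization to 2974 and 2900. Gfap had a log2 difference of 0.20 (adjusted p = 0.0713, limma) with median centring. Aqp4 had a log2 difference of 0.23 (adjusted p = 0.0449, limma) with median centring, and of 0.09 (adjusted p = 0.393) with quantile normalization, and its adjusted p lay between 0.0449 and 0.778 over its alternatives. At 1.5-fold in place of 2-fold, NPC replicate 3 was above replicates 1 and 2 at 2 members, Slc1a3 and Fabp7. Gfap and Aqp4 fell below both filters, and Slc1a2 and Aldh1l1 below the filter at the median. The cause of these changes was not tested.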
